A study of Triticum aestivum and Triticum urartu with 56 samples.

Results

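Q, also called AP2L5, is the domestication gene of wheat that governs spike shape and threshing, and bread wheat carries it in 3 homoeologous copies, on chromosomes 5A (TraesCS5A02G473800), 5B (TraesCS5B02G486900) and 5D (TraesCS5D02G486600). These 3 genes were chosen by their identifiers and not by their measured values, though with earlier results of these data known. They were taken from the 107891 genes in each RNA-seq file, and all 3 were found in all 9 RNA-seq libraries. The chromosomes are those in the gene identifiers, and no annotation used here holds these identifiers, so that positions and sequences are not given.

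Q encodes a transcription factor of the APETALA2 class, a family that sets the identity of floral organs and of the spikelet meristem and whose transcripts are cut by a microRNA. The cultivated allele on 5A gives compact spikes and free-threshing grain, whereas the older allele gives the long spelt-like spike with hulled grain. The 5B copy is known as a pseudogene that is still transcribed, and the 5D copy is known to add to the suppression of the spelt-like form.

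Spikes at the booting stage (Feekes 10) were sequenced from 4 lines labelled RLG_7.3_enh_RNAi (RNAi1 to RNAi4) and from 3 plants labelled WT (CK1 to CK3). In the RNAi lines, of the first transgenic generation, an RNAi construct targeted 1 enhancer-like-element RNA of the RLG_famc7.3 retrotransposon family, which is transcribed mainly in spikes, and the comparison asks which spike genes differ when that RNA is knocked down. The labels give the cultivar as Fielder where the methods name JW1, and the methods' WT is described elsewhere in the study as negative control transgenic lines. The other 2 libraries, with 1 per tissue, were of cultivar Chinese Spring, from roots grown for 9 days in Hoagland solution and from immature embryos taken 14 days after flowering. The targeted RNA was not analysed here.

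The spike files hold FPKM, the fragment count of a gene corrected for gene length and library size, from which whole reads were recovered. Between 2492205 (CK1) and 9849655 (RNAi3) reads fell on genes in the spike libraries, 20705861 in the root library and 33911272 in the embryo library. CK2 stood apart from the other spike libraries, with correlations of 0.59 to 0.75 against 0.72 to 0.93 among the other 6 (Pearson, log2(FPKM + 1), across genes). Its FPKM summed to 293545 over all genes, whereas the other 6 libraries summed to between 534290 and 589114. Of the 8059276 reads by which FPKM in CK2 were scaled, 4176738 fell on genes. In CK1 these were 2492205 of 3176975 reads, and in CK3 8394300 of 9737702. FPKM in CK2 were thus lower over all genes together, and not for Q alone. The fold changes, the summed level and the shares in spikes are therefore also given without CK2.

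The 5A homoeologue was the most abundant copy of Q in 6 of the 7 spike libraries. It had 13.98, 14.53, 13.13 and 4.94 FPKM in RNAi1 to RNAi4, against 14.17, 1.99 and 11.45 FPKM in CK1 to CK3. RNAi4 was low among the RNAi lines and CK2 was low among the CK plants, and the 2 groups overlapped. These values rested on 218, 264, 279 and 102 reads in the RNAi lines and on 84, 30 and 208 reads in the CK plants. The 95% Poisson interval of RNAi4 was 4.03 to 5.998 FPKM and did not reach those of the other RNAi lines, of which the lowest bound was 11.64 FPKM, so that the gap exceeded the counting error. Such intervals cover counting error only, since reads made by PCR are not independent molecules.

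The 5B homoeologue had 4.26, 4.20, 5.94 and 5.07 FPKM in RNAi1 to RNAi4, against 6.16, 1.32 and 6.58 FPKM in CK1 to CK3. CK1 and CK3 lay above all 4 RNAi lines and CK2 lay below all of them. It had the fewest reads of the 3 copies in 5 of the 7 libraries, between 40 and 76 in the RNAi lines and between 12 and 72 in the CK plants.

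The 5D homoeologue had 3.82, 2.17, 5.85 and 4.53 FPKM in RNAi1 to RNAi4, against 7.35, 0.78 and 6.73 FPKM in CK1 to CK3. As for 5B, CK1 and CK3 lay above all the RNAi lines and CK2 below them. Among the RNAi lines RNAi2 was the lowest, from 37 reads, with an interval of 1.52 to 2.98 FPKM that did not reach the interval of RNAi3 (4.84 to 7.02 FPKM).

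**Figure D1:**
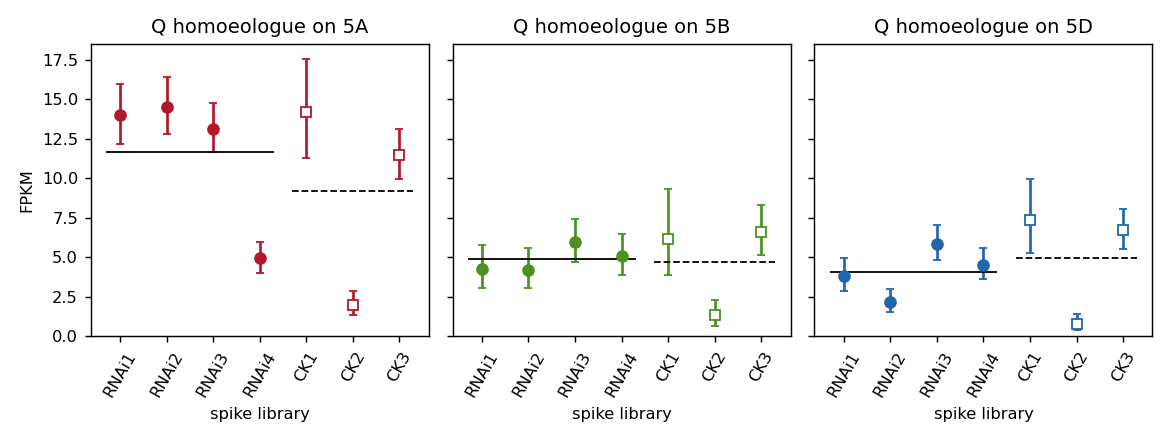
FPKM of the 3 Q homoeologues (y axis) in each spike library (x axis), with filled circles for the 4 RNAi lines, open squares for the 3 CK plants, 95% Poisson intervals of the recovered reads as bars, and the group mean as a solid (RNAi) or dashed (CK) line. CK2 is low in all 3 panels at 1.99, 1.32 and 0.78 FPKM. RNAi4 is the lowest of the RNAi lines only on 5A, at 4.94 FPKM, with 5.07 on 5B and 4.53 on 5D, both below CK1 and CK3.

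None of the 3 homoeologues passed a test of the RNAi lines against the CK plants. The mean FPKM of 5A was 11.65 ± 4.51 in RNAi spikes and 9.20 ± 6.39 in CK spikes, that of 5B was 4.87 ± 0.82 and 4.69 ± 2.92, and that of 5D was 4.09 ± 1.54 and 4.95 ± 3.63 (SD, n = 4 RNAi and n = 3 CK). In the limma fit of log2(FPKM + 1) across the 55551 genes that averaged 0.5 FPKM or more, the log2 fold change of RNAi over CK was 0.52 (SE 0.60, adjusted p = 0.665) for 5A, 0.22 (SE 0.43, adjusted p = 0.811) for 5B and 0.01 (SE 0.55, adjusted p = 0.992) for 5D. The exact two-sided permutation test of the 7 libraries gave p = 0.457, 0.857 and 0.971, and the smallest p that it allows is 0.0571. In the same fit 0.598% of all genes passed an adjusted p of 0.05 as lower in RNAi and 0.0306% as higher. By the study's thresholds, which ask for more than a 2-fold difference at p below 0.05 with no adjustment, 4.31% passed as lower and 5.23% as higher. Neither rule was passed by any of the 3 homoeologues, and 0 of 3 had an unadjusted p under 0.05 in limma, in edgeR or in DESeq2, where 15%, 16.2% and 15% of all genes did.

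The sign of these differences changed with CK2 and with the tool. Without CK2 the log2 fold change was -0.22 for 5A, -0.34 for 5B and -0.71 for 5D, with the adjusted p for 5D at 0.393 in the limma fit. Both 5B and 5D were then lower in all 4 RNAi lines than in the 2 CK plants left, with means of 4.87 and 4.09 FPKM in RNAi spikes against 6.37 and 7.04 FPKM in CK spikes, a separation for which the exact permutation test gave p = 0.133, the smallest that 4 against 2 libraries allow. Over all 55811 genes that averaged 0.5 FPKM or more in these 6 libraries, 11.8% lay lower in all RNAi lines than in both CK plants and 13.4% lay higher. With all libraries kept, 5B was at -0.11 in edgeR and -0.09 in DESeq2, and 5D at -0.39 in edgeR, -0.36 in DESeq2 and -0.12 after quantile normalization. In limma 5D was also below 0 without RNAi3 (-0.15) or RNAi4 (-0.04). With all libraries, all RNAi values lay below all CK values for 4.72% of the genes and above them for 10.8%, and 0 of the 3 homoeologues was among either. With array weights, the log2 fold change of 5D was -0.70 (adjusted p = 0.119 in the limma fit). These weights were smallest for CK2 (0.14) and largest for CK1 (4.58), with CK3 at 0.66. The CK side of this fit thus rested mainly on CK1, whose 5D level of 7.35 FPKM came from 41 reads and was the highest in spikes. The summed FPKM of the 3 copies was 22.06, 20.90, 24.92 and 14.54 in RNAi1 to RNAi4, against 27.68, 4.10 and 24.75 in CK1 to CK3. It thus averaged 20.6 ± 4.38 in RNAi spikes and 18.8 ± 12.9 in CK spikes (SD, exact permutation p = 0.80 on the log2 scale, n = 4 and n = 3). Without CK2 the CK mean was 26.2 and the log2 difference changed sign, to -0.36 against 0.45 with all libraries (exact permutation p = 0.267, n = 4 and n = 2).

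**Figure D2:**
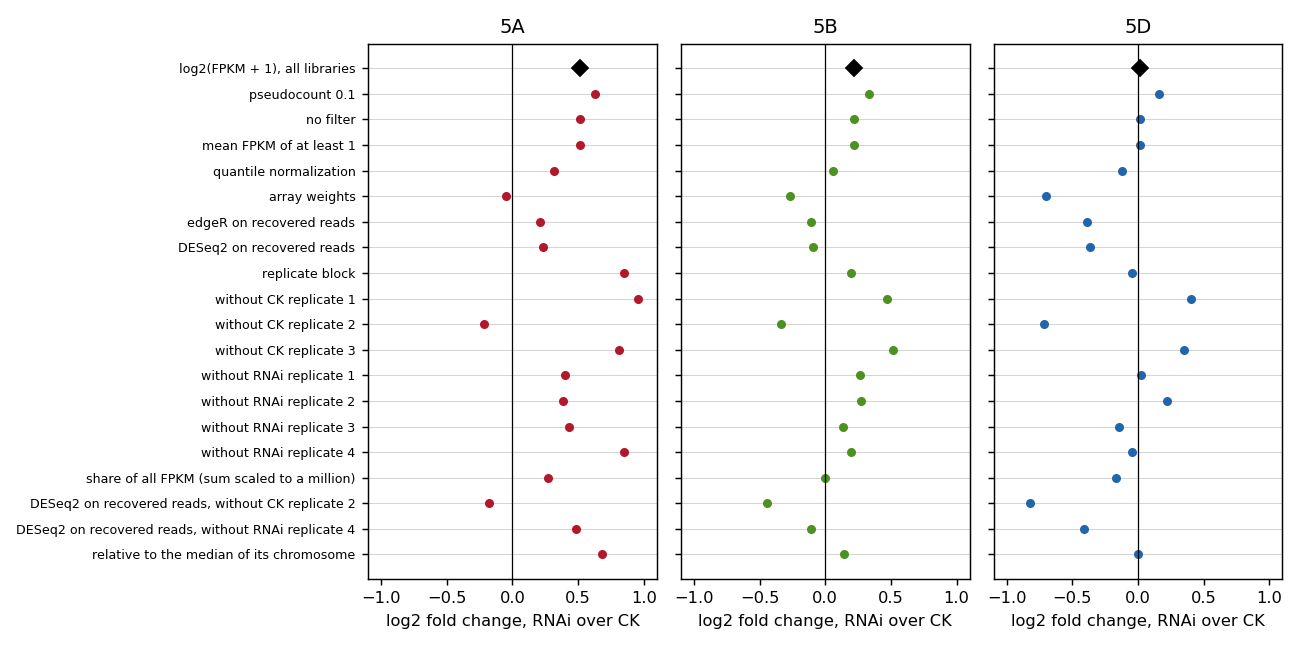
Log2 fold change of RNAi over CK (x axis) of each Q homoeologue under each processing setting (y axis), with the fit of all libraries as a black diamond. Without CK2 all 3 homoeologues lie below 0, at -0.22, -0.34 and -0.71, and 0.52, 0.22 and 0.01 are the values with all libraries.

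The levels of the 3 copies of Q relative to the other libraries differed between the 4 RNAi lines. On the log2 scale described next, 5A was at 0.05, 0.08, -0.09 and -1.61 in RNAi1 to RNAi4. The 5B copy was at -0.51, -0.56, 0.23 and -0.35 in these lines, and 5D at -0.65, -1.46, 0.36 and -0.49. In RNAi4 the low level of the 5A copy was shared by the whole chromosome. Relative to the median of the other libraries (without CK2) and to the median of all genes in the library, the median of the 1068 genes on 5A that averaged at least 5 FPKM was -0.90 on the log2 scale in RNAi4, or 0.536-fold. In the other 3 RNAi lines this median lay between 0.10 and 0.17, and in the CK plants between 0.01 and 0.07. In RNAi4, 96.3% of the 1068 genes were below 0, and the medians of all 21 successive bins of 50 genes along the chromosome were below 0, from -1.25 to -0.69. In CK2 the bins of 5A ran from -0.58 to 1.18, with the bin that holds Q at -0.49, so that its chromosome median near 0 did not hold for each region. On the same scale Q on 5A was at -1.61 in RNAi4, lower than the bin that holds it (-1.14) and with 21.1% of the 5A genes lower still. All 5 neighbours of Q on 5A with such a level, among the 10 listed genes on either side, were below 0 in RNAi4 with a median of -1.16. In CK2 all 5 were below 0 as well, with a median of -0.79. Q on 5A was at -1.48 there, while the median of its chromosome was 0.01. Thus Q and its chromosome were low together in RNAi4, with Q below the median of the chromosome. A reason shared by Q and its chromosome was not tested. Whether the number of chromosomes differed between lines was not tested.

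Chromosomes 5B and 5D as a whole showed no such shift in any library, with medians between -0.07 and 0.07 over their 1075 and 1145 genes. In CK2 their bins of 50 genes still ran from -0.48 to 0.75 on 5B and from -0.66 to 0.84 on 5D. All 4 neighbours of Q on 5B and 6 of 7 on 5D were below 0 in CK2. Q on 5D in RNAi2 was at -1.46, or 0.363-fold, while the median of chromosome 5D in that line was 0.01 and only 4.6% of its genes were lower. There, 1 of the 7 neighbours of Q was below 0. In contrast to 5A in RNAi4, the low 5D copy in RNAi2 was not accompanied by its chromosome. Over all 21 chromosomes, a median beyond 0.5 on the log2 scale in either direction was found for 5A and 6A in RNAi4 and for 6A in RNAi1, and for none in the other 5 libraries.

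**Figure D3:**
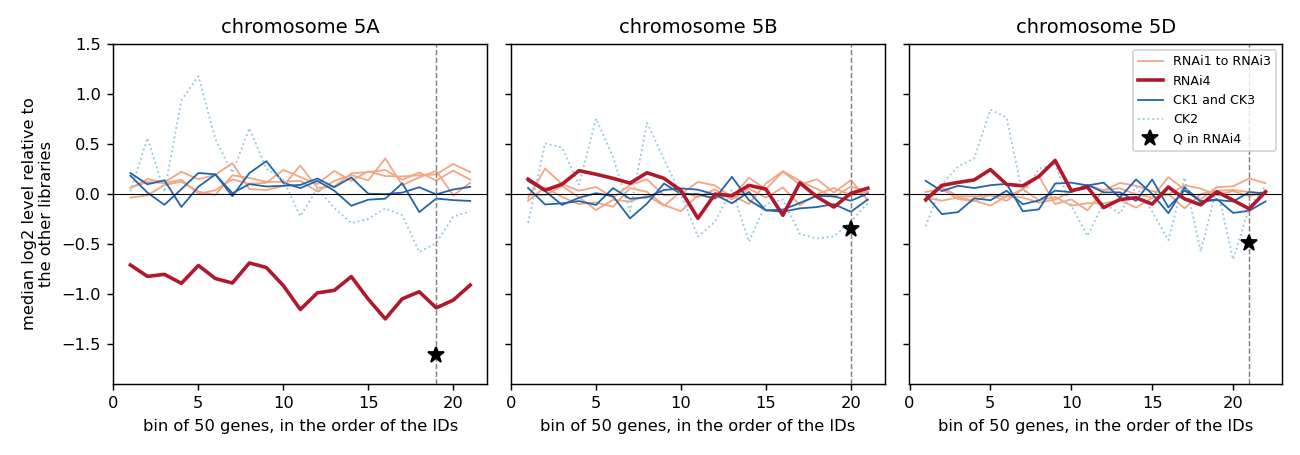
Median log2 level of successive bins of 50 genes along chromosomes 5A, 5B and 5D in the order of the gene identifiers (x axis), relative to the other libraries and to all genes of the library (y axis), 1 line per library. The dashed line marks the bin with Q and the star the level of Q in RNAi4. On 5A the RNAi4 line runs between -1.25 and -0.69 in all 21 bins, and Q lies at -1.61.

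When each homoeologue was set relative to the median of its own chromosome in each library, the log2 difference of RNAi minus CK was 0.68 for 5A, 0.14 for 5B and near 0 for 5D (exact permutation p = 0.571, 0.857 and 1.000, n = 4 and n = 3). Those relative differences were computed with CK2 kept, and not without it. Without RNAi4, but with CK2 and with no such reference to the chromosome, the log2 fold change of 5A was 0.85 in the limma fit. Without CK2 but with RNAi4, the same fit gave -0.22 for 5A, -0.34 for 5B and -0.71 for 5D. The adjusted p of the 3 copies was at or above 0.119 under each setting with a fit across genes.

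The copies contribute unequally to the expression of Q. The share of 5A in the summed FPKM was 63.4%, 69.5%, 52.7% and 34.0% in RNAi1 to RNAi4, against 51.2%, 48.7% and 46.2% in CK1 to CK3. The RNAi lines spread to both sides of the CK plants, which lay within 5 percentage points of each other. The share of 5B was 19.3%, 20.1%, 23.8% and 34.8% in RNAi1 to RNAi4, against 22.3%, 32.3% and 26.6% in CK1 to CK3. The share of 5D was 17.3%, 10.4%, 23.5% and 31.2% in RNAi1 to RNAi4, against 26.6%, 19.0% and 27.2% in CK1 to CK3. RNAi2 thus had the highest share of 5A and the lowest share of 5D, and RNAi4 the lowest share of 5A and the highest shares of 5B and 5D. FPKM divides by the length of the gene model, recovered as 1866 bp for 5A, 1124 bp for 5B and 1755 bp for 5D. How reads that match more than 1 homoeologue were counted is not given in the sources used here, and shares between near-identical copies depend on it.

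The mean share of 5A was 54.9% ± 15.6 in RNAi spikes and 48.7% ± 2.5 in CK spikes, that of 5B was 24.5% ± 7.2 and 27.1% ± 5.1, and that of 5D was 20.6% ± 8.9 and 24.2% ± 4.6 (SD, n = 4 RNAi and n = 3 CK). The differences of 6.19, -2.53 and -3.66 percentage points were smaller than the spread between RNAi lines, with exact permutation p = 0.514, 0.571 and 0.571 and p = 0.571 for each after Benjamini-Hochberg adjustment over the 3 shares. Without CK2 they were 6.18, 0.11 and -6.29. The difference of 5A depended on single lines, at 13.2 without RNAi4 (exact permutation p = 0.10, the smallest that 3 against 3 libraries allow, adjusted p = 0.20) and 1.31 without RNAi2, and that of 5D ran from -7.19 without RNAi4 to -0.25 without RNAi2. With each copy relative to its chromosome, the difference of 5A was 9.75 (exact permutation p = 0.114, adjusted p = 0.343, n = 4 and n = 3). The spread between lines exceeded the counting error. As a share of the recovered reads, 5A took 102 of 253 in RNAi4 (40.3%, 95% Clopper-Pearson interval 34.2% to 46.6%) and 264 of 347 in RNAi2 (76.1%, 71.2% to 80.5%). With each copy relative to the median of its own chromosome, RNAi4 had a 5A share of 50.0%, within the range of the other RNAi lines and CK plants (44.4% to 68.0%). Q on 5A still lay below the median of its chromosome in RNAi4, at -1.61 against -0.90 on the log2 scale. The 5B and 5D copies were below 0 there as well, at -0.35 and -0.49, which also enters this share. What lowered Q in RNAi4 was not tested.

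Within the spike libraries the 5A copy exceeded both others. The level of 5A was 3.59, 6.46, 2.22 and 1.09 times that of 5D in RNAi1 to RNAi4, against 1.91, 2.39 and 1.69 times in CK1 to CK3 (0.1 added to both FPKM). The mean log2 ratio was 1.25 ± 0.82 (SD, n = 7 libraries), above 0 in 7 of 7 libraries, with an exact sign-flip permutation p = 0.0156 (adjusted p = 0.0469 over 3 pairs), the smallest that 7 libraries allow. For 5A over 5B the mean log2 ratio was 1.01 ± 0.64 and was above 0 in 6 of 7 libraries, with RNAi4 as the exception at -0.04 (exact permutation p = 0.0312, adjusted p = 0.0469, n = 7). Both calls at 0.05 were lost, with an adjusted p of 0.094 by the same exact permutation test, when any 1 library other than RNAi4 was left out. With 6 libraries the smallest unadjusted p that this test allows is 0.0312, which 5A over 5D had under each removal. Its loss therefore does not show that it depended on a single library. For 5D over 5B it was -0.24 ± 0.42 (exact permutation p = 0.234, n = 7), so that the 2 minor copies were not distinguished. The log2 ratio of 5A over 5D was 0.47 higher in RNAi spikes than in CK spikes, which the exact permutation test did not separate (p = 0.571, adjusted p = 0.686, n = 4 and n = 3).

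**Figure D4:**
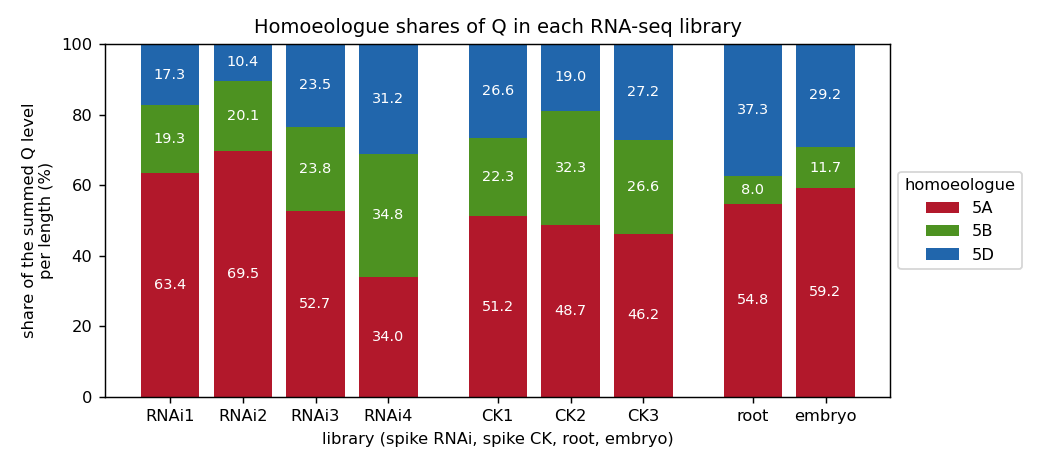
Share of each Q homoeologue in the summed level of Q per length (y axis, %) in the 4 RNAi lines, the 3 CK plants, root and embryo (x axis), from FPKM in spikes and from counts divided by recovered lengths in root and embryo. The 5A copy takes between 34.0% (RNAi4) and 69.5% (RNAi2), and the 5B copy takes 8.0% in root and 11.7% in embryo against at least 19.3% in each spike library.

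For the genome as a whole the 3 subgenomes were nearly even. The A subgenome took between 30.7% and 34.6% of the summed FPKM of the 3 subgenomes over the 7 spike libraries, and chromosome 5A took 20.7% of the FPKM of the group 5 chromosomes in RNAi4 and between 34.1% and 34.9% in the other 6.

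The levels of 5B and 5D followed each other across the spike libraries. Over the 7 libraries their log2(FPKM + 1) had a Pearson r of 0.95 (permutation p = 0.00119, exact, adjusted p = 0.00357 over 3 pairs) and a Spearman rho of 0.96 (exact permutation p = 0.00278). Without CK2 and CK3, the 2 libraries farthest from the median of 5B, r was 0.92. For 5A with 5D, r was 0.66 (exact permutation p = 0.189) and rho was 0.21 (exact permutation p = 0.662), and for 5A with 5B, r was 0.78 (exact permutation p = 0.140) and rho was 0.11 (exact permutation p = 0.840). Without CK2 and RNAi4 these became r = -0.55 and r = -0.69, so that the positive values rested on those 2 libraries. All values of a library share its depth and scaling, and neither group has enough libraries for a value of its own.

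The 2 genes whose pattern was most like that of Q on 5A lay on the same chromosome. Among 21052 other genes that averaged at least 5 FPKM, TraesCS5A02G448200 (r = 0.998) and TraesCS5A02G178100 (r = 0.996) had the highest Pearson correlation with it over the 7 spike libraries, as log2(FPKM + 1). TraesCS5A02G448200 had 17.31, 20.56, 17.88 and 6.74 FPKM in RNAi1 to RNAi4, against 18.21, 2.62 and 15.76 FPKM in CK1 to CK3, low in RNAi4 and CK2 as Q was. TraesCS1D02G135200 (r = -0.992) and TraesCS3B02G137700 (r = -0.990) were at the opposite end and highest in CK2, at 9.83 and 17.15 FPKM. In all, 1490 genes had an r above 0.9 and 299 one below -0.9, and how many of them lie on 5A was not counted. With 7 libraries, of which CK2 stands apart, such values are a description and are given without a test.

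Genes next to Q did not pass the test either. Of the 60 genes listed within 10 places of the 3 homoeologues, 30 averaged at least 0.5 FPKM, and 0 of these passed an adjusted p of 0.05 in the limma fit, where 0.598% of all genes were lower and 0.0306% higher. An unadjusted p under 0.05 was found for 2 of the 30, both higher in RNAi, where 15% of all genes had one. On recovered reads, 1 of the 28 neighbours tested by edgeR and 1 of the 51 tested by DESeq2 had such a p, both lower in RNAi (16.2% and 15% of all genes), and 0 passed the adjusted threshold. By the study's thresholds, 1 was higher in RNAi, against a background of 5.23%, and 0 were lower. All RNAi libraries lay above all CK libraries for 3 of the 30 (background 10.8%) and below them for 1 (background 4.72%). The median log2 fold change was 0.14 around 5A, 0.41 around 5B and 0.61 around 5D, from 11, 10 and 9 genes, where the median of all genes was 0.17. These medians keep CK2 and were not computed without it. In CK2 the neighbours that averaged at least 5 FPKM were low relative to the other libraries. Their medians there were -0.79 on 5A, -1.22 on 5B and -0.54 on 5D.

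**Figure D5:**
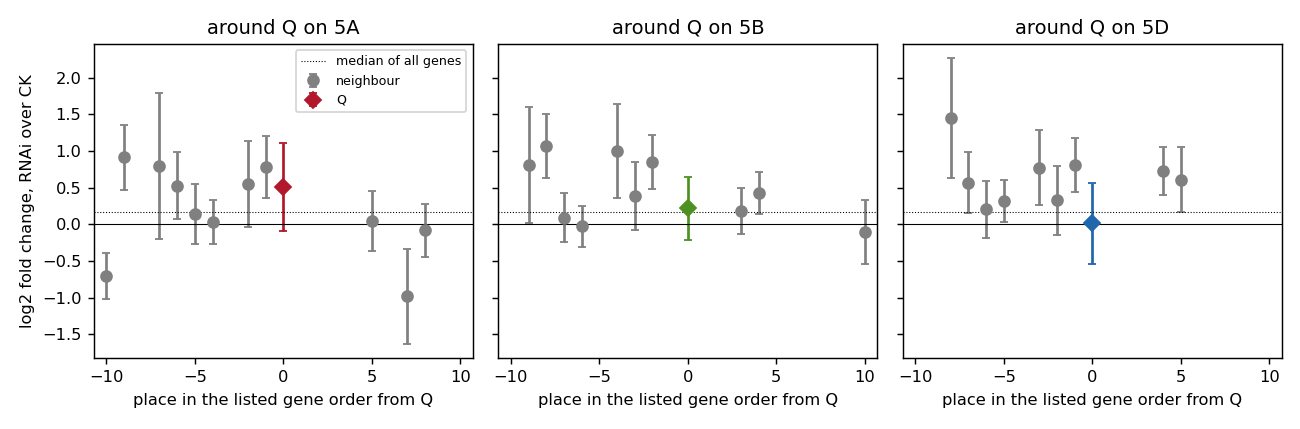
Log2 fold change of RNAi over CK (y axis, with standard errors) of Q (diamonds) and of the measured genes within 10 places of it in the listed order (grey circles, x axis). The neighbours range from -0.98 to 1.45, none passes an adjusted p of 0.05, and the dotted line is the median of all genes at 0.17.

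In Chinese Spring, Q was also transcribed outside the spike. The root library had 217 reads on 5A, 19 on 5B and 139 on 5D, against 278, 33 and 129 reads in the embryo library. In CPM (counts scaled to library size), 5A had 10.5 in root and 8.20 in embryo, 5B had 0.918 and 0.973, and 5D had 6.71 and 3.80. With 1 library per tissue there is no test, and intervals cover counting error only. The log2 ratio of root over embryo was 0.36 for 5A (95% interval 0.09 to 0.62), -0.07 for 5B (-0.98 to 0.77) and 0.82 for 5D (0.46 to 1.18). The 5D copy had the largest ratio of the 3, and the interval of 5B included equal levels. With TMM scaling in place of library size the ratios were 0.18 for 5A (-0.08 to 0.44), -0.24 for 5B and 0.64 for 5D (0.29 to 1.00), and with median-of-ratios scaling they were 0.23 (-0.04 to 0.49), -0.20 and 0.69, so that the interval of 5A then included equal levels too. None of the 3 was past 2-fold, where 33.3% of 69213 genes were more than 2-fold higher in root and 21.8% more than 2-fold higher in embryo.

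The 5B copy had the smallest share in both tissues. Of the 375 Q reads in root, 57.9% were on 5A (95% Clopper-Pearson interval 52.7% to 62.9%), 5.07% on 5B (3.08% to 7.80%) and 37.1% on 5D (32.2% to 42.2%). Of the 440 Q reads in embryo, 63.2% were on 5A (58.5% to 67.7%), 7.50% on 5B (5.22% to 10.4%) and 29.3% on 5D (25.1% to 33.8%). The intervals of the 2 tissues overlapped for each copy. In the spike libraries 5B took between 12.7% and 24.9% of the recovered Q reads, and the interval of the root library lay below all 7 spike intervals, of which the lowest bound was 9.26%, whereas the embryo interval overlapped with several of them. Per recovered length, 5B had 7.96% of the level in root and 11.7% in embryo. Tissue, cultivar and library cannot be told apart in this comparison.

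In TPM (reads per gene length, scaled to the same sum in each library), the summed level of Q was 37.7, 36.1, 43.0 and 26.3 in RNAi1 to RNAi4, 51.8, 14.0 and 42.0 in CK1 to CK3, 16.3 in root and 10.9 in embryo. The order thus ran from embryo through CK2 and root to the other spike libraries. For root and embryo TPM used the genes with a recovered length, which held 96.9% and 87.8% of their reads. For 5A the range over spikes was 6.80 (CK2) to 26.5 (CK1) TPM, with 8.95 in RNAi4, 8.94 in root and 6.47 in embryo.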

How the data were processed

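The members, lists and comparisons were chosen with earlier results of these data known. The authors trimmed reads with Trim Galore 0.6.4 and cutadapt, aligned them with HISAT2 2.1.0 and counted them on high-confidence IWGSC genes with featureCounts, and the submitters' notes name the same tools, without versions for root and embryo. Per the files, root and embryo values are raw read counts per gene, deposited without normalization, and spike values are FPKM computed by the authors. The methods call differential genes with DESeq2.

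Here log2(FPKM + 1) of the 4 RNAi and 3 CK libraries was fitted with limma 3.58.1 (R 4.3.3, mean-variance trend, mean FPKM of at least 0.5), with p-values adjusted over all genes. FPKM values were turned back into whole reads (99.999% of the values above 0, within 0.002 reads), on which edgeR 4.0.16 and DESeq2 1.42.0 were run as alternatives. Root and embryo counts were scaled to library size, with TMM and median-of-ratios scaling as alternatives. Shares and ratios were tested by exact permutation over libraries (scipy), all two-sided. Scripts for the fits and for the recovery of reads were tested on simulated data.

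Replicate numbers did not pair the libraries. Named genes are the 3 homoeologues, the 2 most and 2 least correlated genes of 5A, and any neighbour past the adjusted threshold. Pathway genes and tissue markers were not used here, since no table pairs the identifiers with names. The chromosome medians were added after seeing the data. CAGE and peak files were not used.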

Additional observations from a re-analysis of the deposited data

Results flagged for a closer look

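Among the 4 RNAi lines, the FPKM of Q on 5A in RNAi4 (4.94) stood far from those of the other 3 lines (13.13 to 14.53), with a gap of 0.854 of the whole range. The median of chromosome 5A was also low in this line, at -0.90 on the log2 scale, and its part in the level of Q was not tested.

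The log2 ratio of 5D over 5B in RNAi2 (-0.93) stood far from those of the other RNAi lines (-0.16 to -0.02), with a gap of 0.848 of the range. It rests on 37 reads on 5D and 46 reads on 5B. A total of 9 measures were examined in this way, and chance sets apart about 1 in 20.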

How the results depend on the processing

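No Q homoeologue passed an adjusted p of 0.05 under any alternative, while the sign of its log2 fold change of RNAi over CK did change, and the cause was not tested. It was 0.52, 0.22 and 0.01 for 5A, 5B and 5D with all libraries. With array weights it was -0.048, -0.27 and -0.70, the last with an unadjusted p of 0.046 in limma. The CK side then rested mainly on CK1, with a weight of 4.58 against 0.66 for CK3 and 0.14 for CK2. Leaving out each library in turn gave -0.22 to 0.95 for 5A, -0.34 to 0.51 for 5B and -0.71 to 0.40 for 5D, with the lowest value of each without CK2. On recovered reads 5B was at -0.11 in edgeR and -0.092 in DESeq2, and 5D at -0.39 and -0.36. DESeq2 without CK2 gave -0.18, -0.44 and -0.82, and DESeq2 without RNAi4 gave -0.11 for 5B and -0.41 for 5D. Scaling each library to a fixed sum of FPKM gave -0.0055 for 5B and -0.17 for 5D, and quantile normalization gave -0.12 for 5D. Relative to its chromosome 5D was at -0.00020, with CK2 kept. The scaling to a fixed sum, the removals with DESeq2 and the chromosome medians were chosen after seeing the data. Same-numbered libraries did not deviate together (r = -0.08, -0.05 and 0.09), so the numbers do not pair the samples, and a replicate block over 3 lines and 3 CK plants gave -0.045 for 5D, with 517 genes lower and 175 higher by the adjusted p and 4751 higher by the study's thresholds.

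The difference in the share of 5B ran from -5.97 to 0.11 percentage points as libraries were left out, the last without CK2. The log2 ratio of 5A over 5D ran from 1.01 to 1.44 and that of 5A over 5B from 0.89 to 1.19, and with 6 libraries both adjusted p-values were 0.094 except without RNAi4, at 0.047. Per length the 5B share was 7.96% in root and 11.7% in embryo.

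Counts over all genes moved most, from 332 lower and 17 higher by the adjusted p. These were 501 and 37 with quantile normalization, 7148 and 6453 with array weights, 585 and 6 in edgeR, 2397 and 476 in DESeq2, 1557 and 176 in DESeq2 without CK2, 3354 and 1274 in DESeq2 without RNAi4, and 675 and 38 with a fixed sum, and 6 were higher without a filter. Left-out libraries gave 171 to 762 lower and 1 to 118 higher. By the study's thresholds, 2393 genes were lower and 2904 higher, against 5377 lower with array weights, 5693 lower in edgeR, 7982 in DESeq2, 4758 lower and 1578 higher in DESeq2 without CK2, 8801 and 4367 without RNAi4, 4989 lower with a fixed sum and 4433 higher with 0.1 added to FPKM. Left-out libraries gave 1667 to 3299 lower and 816 to 6242 higher. The median of all genes was 0.17 in limma and -0.21 in DESeq2. CK2 gave only 11 to 30 reads per homoeologue, which limits its shares.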
